A study of Mus musculus with 12 samples.

Results

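The 6 hippocampal libraries from mice that carried the 5xFAD transgenes were compared with the 6 libraries from mice that did not, out of 12 libraries in all. Membership came from the genotype labels alone. The carriers were 3 libraries of 5xFAD and 3 of 5xFAD/p75NTRko, and the non-carriers were 3 of WT and 3 of p75NTRko. All mice were 2 months old and had received BrdU, a thymidine analogue that labels dividing cells. 5xFAD mice express, in neurons and from a Thy1 promoter cassette, human transgenes that bear mutations of familial Alzheimer's disease. The label p75NTRko stands for mice in which Ngfr, the gene of the p75 neurotrophin receptor, is knocked out. The labels give neither the strain, the sex nor the knockout allele. QuantSeq reads the 3′ end of each polyadenylated transcript. Levels are given as CPM, the reads of a gene scaled by the gene-assigned reads of its library times the library's TMM normalization factor. They carry no gene-length term. The comparison asked which transcripts differ with the transgenes over both receptor labels, so the receptor label was a term of the model and the effect was taken as a single value for both backgrounds.

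Amyloid-beta is cut from the amyloid precursor protein, App, by the beta- and gamma-secretases, while alpha-secretases such as Adam17 cut within the peptide. Proteases such as insulin-degrading enzyme (Ide) and neprilysin (Mme) break the peptide down, and microglia and astrocytes around plaques take up a reactive state. In the 5xFAD line the plaques build up over the first months of life. Neurons that make much secretory or membrane protein also depend on the chaperones of the endoplasmic reticulum, such as Hspa5 (BiP) and the disulfide isomerase Pdia6, whose genes are induced by the unfolded protein response.

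Gene-assigned reads numbered 4857840 to 6172550 in the carriers and 4316740 to 6683610 in the non-carriers, and 13065 of 24421 genes in the table passed the filter on low counts. Every pair of libraries of a genotype differed by more than counting noise, with 2.97 as the smallest ratio of chi-square to its degrees of freedom. The labels give biological replicate numbers but no animal identities, so the p-values measure the spread between these libraries. All 12 libraries carry the same batch label. Summed over 17 tested markers of hippocampal fields, the libraries held 1262 to 2034 CPM in carriers and 1054 to 1788 CPM in non-carriers. Ngfr, the gene named by the knockout label, lay at 5.94 to 10.5 CPM in the 6 libraries with that label and at 0.166 to 1.94 CPM in the 6 without it, against the direction of the label. A 3′ read checks a knockout only where the deletion reaches the end of the transcript, so the libraries are named here as labelled. Xist, the RNA of the inactive X chromosome, was above 50 CPM in 3 of 6 carriers (all 5xFAD/p75NTRko) and in 4 of 6 non-carriers (all WT and p75NTRko replicate 1). Xist class therefore followed the carrier label completely in 5xFAD against WT, partly and in the other direction in 5xFAD/p75NTRko against p75NTRko, and less over all 12 libraries.

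A single gene, Thy1, passed an adjusted p of 0.05 between carriers and non-carriers (edgeR's quasi-likelihood test, Benjamini-Hochberg adjustment over 13065 genes), and it rose. It was the 1 call among 13065 genes, or 0.00765%. Unadjusted p-values under 0.05 were more frequent, at 1254 genes or 9.6% (731 with a higher value in carriers, 5.6%, and 523 with a lower one, 4%). Genes whose carrier and non-carrier libraries did not overlap in CPM numbered 76, or 0.582%. Of these, 46 (0.352%) lay higher in carriers and 30 (0.23%) lower. The median log2 fold change of all tested genes was 0.0048. The count of calls depended on the tool and on 1 library: DESeq2 called 66 genes (0.535% of 12346), and without 5xFAD/p75NTRko replicate 3 edgeR called 52 genes. Without 5xFAD/p75NTRko replicate 1 the count was 2, with Nt5c3 joining Thy1.

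Thy1 encodes a glycosylphosphatidylinositol-anchored surface protein of mature neurons, and its regulatory sequence drives the transgenes. On GRCm38.p6 the gene lies on the plus strand at chr9:44043384-44048579. Its level was 3971, 4012 and 1594 CPM in 5xFAD replicates 1, 2 and 3, and 1778, 4013 and 3175 CPM in 5xFAD/p75NTRko replicates 1, 2 and 3. In WT it was 775, 938 and 752 CPM, and in p75NTRko 739.7, 737 and 687 CPM, in the same order of replicates. Every carrier lay above every non-carrier, and 5xFAD replicate 3 and 5xFAD/p75NTRko replicate 1 stood well below the other 4 carriers. The fitted log2 fold change was 2.00 (SE 0.213, adjusted p 0.00138, edgeR), a 4.01-fold rise. The difference in mean log2 CPM was 1.91. Permuting the carrier labels within receptor label gave a two-sided exact p of 0.005 from 400 assignments, the smallest p they can give. The value was 1.96 (SE 0.305) for 5xFAD against WT and 2.05 (SE 0.307) for 5xFAD/p75NTRko against p75NTRko, and the test of their difference gave an adjusted p of 0.960 (edgeR). Taken alone, the second of these did not pass (adjusted p 0.110, edgeR). Reads of the mouse gene and of any transgene transcript that ends in Thy1 sequence cannot be told apart under this symbol.

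Mouse App, the precursor gene, was 970 CPM at the lowest, 1055 at the median and 1163 at the highest in carriers, against 707, 953 and 1016 CPM in non-carriers. The ranges overlapped, and WT replicate 2 was the low library. Its log2 fold change was 0.20 (SE 0.0841, adjusted p 0.490, edgeR), which did not pass. Prnp, the prion protein gene, whose promoter drives transgenes of other Alzheimer models, lay at 936 to 1025 CPM in carriers and 953.7 to 1079.7 CPM in non-carriers, and its fitted value was -0.02 (SE 0.0551, adjusted p 0.950). For Ngfr the value was 0.32 (SE 0.307, adjusted p 0.764), with 0.750 to 10.5 CPM in carriers and 0.166 to 7.77 CPM in non-carriers. Xist (-1.77, SE 1.83, adjusted p 0.782) and the Y-linked helicase gene Ddx3y (0.49, SE 2.16, adjusted p 0.964) were split within both groups by class.

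The 19 genes of next smallest p did not pass, with adjusted p-values of 0.0808 to 0.134 (edgeR), and are given with their values. Counted with Thy1, 14 of the 20 had higher and 6 lower values in carriers. They lay on 12 chromosomes. The sign was the same in both receptor labels for all 20, and for 0 of them did the difference between the labels pass. Their libraries did not overlap in 14 of 20, but the same libraries had ranked them, so neither count is a separate test. All 20 were among the 66 genes called by DESeq2, and 17 were among the 52 called without 5xFAD/p75NTRko replicate 3. Those 2 larger sets shared 28 genes, 42.4% of the first and 53.8% of the second.

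**Figure D1:**
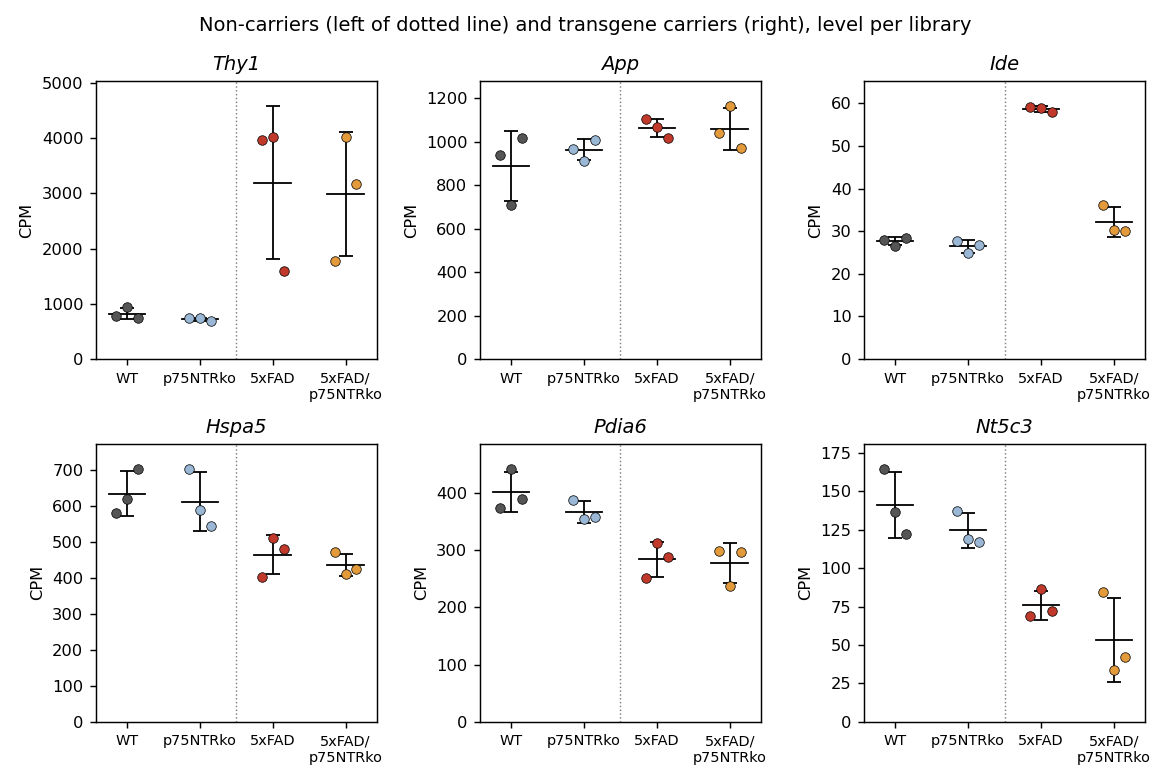
Levels in CPM (vertical axes, each starting at 0) of Thy1, App, Ide, Hspa5, Pdia6 and Nt5c3 in each of the 12 libraries, by genotype, with bars for the mean and SD of 3 libraries. Carriers and non-carriers are separate for Thy1, Ide, Hspa5, Pdia6 and Nt5c3 and overlap for App. Ide is at 58.0 to 59.2 CPM in 5xFAD and at 30.1 to 36.2 CPM in 5xFAD/p75NTRko.

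Nt5c3, which encodes a cytosolic nucleotidase that removes phosphate from pyrimidine nucleotides, had the largest value below 0 among these 20 genes. Its level was 68.8, 86.6 and 72.3 CPM in 5xFAD replicates 1 to 3 and 84.6, 33.9 and 41.9 CPM in 5xFAD/p75NTRko. In WT it was 165, 137 and 122 CPM, and in p75NTRko 137, 119 and 117 CPM. No carrier reached the lowest non-carrier, and 5xFAD/p75NTRko replicates 2 and 3 lay lowest. The log2 fold change was -1.05 (SE 0.172, adjusted p 0.0808, edgeR), -0.90 for 5xFAD against WT and -1.21 for 5xFAD/p75NTRko against p75NTRko.

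Ide, on the minus strand of chromosome 19, belongs to the list of amyloid-beta proteases and receptors. It was 59.2, 58.9 and 58.0 CPM in 5xFAD and 36.2, 30.2 and 30.1 CPM in 5xFAD/p75NTRko, with 27.9, 26.6 and 28.5 CPM in WT and 27.8, 24.8 and 26.9 CPM in p75NTRko. Both carrier genotypes lay above all non-carriers, but the distance differed between them. The single value for both labels was 0.70 (SE 0.129, adjusted p 0.0887, edgeR), where 5xFAD against WT alone gave 1.08 (SE 0.109) and 5xFAD/p75NTRko against p75NTRko 0.28 (SE 0.113). The test of that difference gave an adjusted p of 0.172 and did not pass. In a model with a mean per genotype, where the carrier effect is the average of both, Ide and Thy1 were the 2 genes past the threshold.

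Further genes with higher values in carriers did not pass either. Sorcs3, a sorting receptor of the Vps10 family, lay at 57.8 to 72.5 CPM (median 64.3) in carriers and 44.7 to 52.1 CPM (median 47.7) in non-carriers, a fitted value of 0.41 (SE 0.0733, adjusted p 0.0860). Cacna2d1, an auxiliary subunit of voltage-gated calcium channels, lay at 156 to 200.4 CPM against 129 to 150.2 CPM (0.33, SE 0.0618, adjusted p 0.0887). Neither gene's ranges overlapped. Ppm1l, a protein phosphatase of the endoplasmic reticulum membrane, lay at 64.6 to 83.0 CPM against 45.0 to 58.8 CPM (0.41, SE 0.0741, adjusted p 0.0887), also without overlap. Impad1, a Golgi phosphatase of the sulfation pathway, lay at 47.3 to 83.3 CPM against 33.7 to 58.1 CPM, with overlap because 5xFAD/p75NTRko replicates 2 and 3 lay within the range of WT (0.53, SE 0.0887, adjusted p 0.0808). Ndufa10, a subunit of respiratory complex I, overlapped as well, at 72.2 to 105.0 CPM against 62.9 to 76.5 CPM (0.39, SE 0.0807, adjusted p 0.134).

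Another 4 genes had higher values. Xrn1, the exoribonuclease that degrades decapped RNA, was 6.22 to 10.7 CPM in carriers and 4.54 to 5.79 CPM in non-carriers (0.79, SE 0.163, adjusted p 0.134). Sp4, a neuronal transcription factor of the Sp family, was 109 to 125 CPM against 86.7 to 97.6 CPM (0.28, SE 0.0577, adjusted p 0.134). The ranges of these 2 genes did not overlap. Med13l, of the kinase module of the Mediator complex, was 116 to 167 CPM against 90.2 to 119 CPM (0.43, SE 0.0820, adjusted p 0.0960). Peg3, an imprinted zinc-finger gene, was 18.8 to 36.2 CPM against 17.6 to 22.7 CPM (0.60, SE 0.121, adjusted p 0.134). For both of these the ranges overlapped, through 5xFAD/p75NTRko replicate 3.

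The remaining genes with higher values were 5730455P16Rik at 42.1 to 57.3 CPM in carriers and 35.5 to 39.6 CPM in non-carriers (0.47, SE 0.0802, adjusted p 0.0808), Pdap1 at 71.4 to 109 CPM against 64.9 to 74.9 CPM (0.46, SE 0.0864, adjusted p 0.0887) and the X-linked Dcaf12l1 at 176 to 199 CPM against 139 to 167 CPM (0.32, SE 0.0620, adjusted p 0.119). Pdap1 overlapped between the groups, and the other 2 did not. The last part of Pdap1 is overlapped by the antisense gene Arpc1b, and the labels do not state whether strand was used in counting.

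On the lower side, besides Nt5c3 and the chaperones described next, the 20 genes held Vcam1, Nxn and Ppp1r1b. Vcam1, an adhesion molecule of endothelium and of neural stem cells, was 50.02 to 72.7 CPM in carriers and 74.7 to 96.6 CPM in non-carriers (-0.47, SE 0.0973, adjusted p 0.134). Nxn, nucleoredoxin, a thioredoxin-family regulator of Wnt signalling, was 14.6 to 19.3 CPM against 20.5 to 35.3 CPM (-0.63, SE 0.128, adjusted p 0.134). Ppp1r1b, the dopamine-regulated phosphatase inhibitor that marks striatal projection neurons, was 26.9 to 38.7 CPM against 38.1 to 54.8 CPM (-0.55, SE 0.102, adjusted p 0.0887), overlapping by 1 p75NTRko library. Of the 13 striatal markers tested, Ppp1r1b, Pdyn and Adora2a had an unadjusted p under 0.05, all with lower values in carriers (4% of all genes had such a value). Values were above 0 for 4 of the 13, and the list's median was -0.06. Its medians within receptor label had opposite signs, at -0.45 for 5xFAD against WT but 0.19 for 5xFAD/p75NTRko against p75NTRko, a difference that was not tested. The summed striatal markers lay at 179 to 220.3 CPM in carriers and 189 to 325 CPM in non-carriers, highest in the 3 WT libraries. Of the listed markers that were not tested, Drd2 and Gpr6 had 0 counts in all 12 libraries, and Ido1 and Sh3rf2 had at most 2 in any. The annotation used for counting is not known, so these counts cannot tell whether striatal tissue was present. The part of striatal tissue in the value of Ppp1r1b was not tested, and an antisense gene overlaps the end of this gene too.

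**Figure D2:**
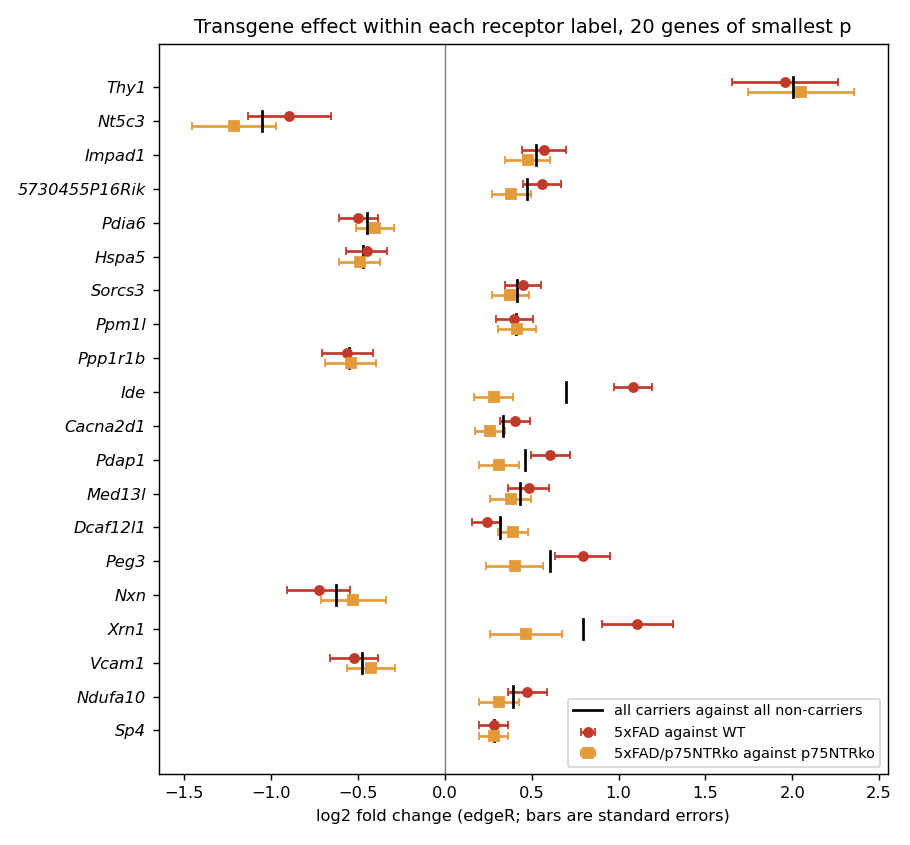
Log2 fold change with its standard error (horizontal axis) of the 20 genes of smallest p, once for 5xFAD against WT and once for 5xFAD/p75NTRko against p75NTRko. All 20 have the same sign in both, Thy1 is near 2 in both, and Ide is at 1.08 and 0.28.

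Both chaperone genes among the 20 had lower values in carriers. Hspa5, the main folding chaperone of the endoplasmic reticulum, was 404, 509.8 and 479 CPM in 5xFAD, 472, 412 and 424 CPM in 5xFAD/p75NTRko, 581, 621 and 702 CPM in WT and 703, 590.2 and 544 CPM in p75NTRko. All carriers lay below all non-carriers, and the fitted value was -0.47 on the log2 scale (SE 0.0817, adjusted p 0.0808, edgeR), a ratio of 0.722. Pdia6, a protein disulfide isomerase of the same compartment, was 252, 313 and 288 CPM in 5xFAD, 299, 238 and 296 CPM in 5xFAD/p75NTRko, 375, 442 and 389 CPM in WT and 389, 355 and 358 CPM in p75NTRko. It too showed no overlap, at -0.45 on the log2 scale (SE 0.0779, adjusted p 0.0808), a ratio of 0.732. Within receptor label the values were -0.45 and -0.49 for Hspa5 and -0.50 and -0.40 for Pdia6. Atp6v1c2 overlaps the end of Pdia6 in antisense.

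Of 26 genes of the unfolded protein and integrated stress responses, 23 were tested and 0 passed in either direction. Unadjusted p-values under 0.05 were found for 5, all with lower values in carriers (4% of all genes had such a value), and 15 of the 23 had values below 0, against 48.8% of all genes. The other 3 of the 5 were the secreted factor Manf (-0.33, SE 0.120, adjusted p 0.427), the disulfide isomerase Creld2 (-0.38, SE 0.152, adjusted p 0.465) and the chaperone Hyou1 (-0.26, SE 0.113, adjusted p 0.495), which were named after their values were seen. The libraries of these 3 overlapped between the groups. The list's median log2 fold change was -0.08, against 0.0048 for all genes, and 2 of its members did not overlap (0.582% of all genes), Hspa5 and Pdia6, which their p had already picked. Of the transcription factors of these responses, Xbp1 had -0.15 (SE 0.122), Atf4 -0.03 (SE 0.121) and Ddit3 -0.15 (SE 0.103), with adjusted p-values of 0.723, 0.956 and 0.653. The kinase gene Eif2ak3 had 0.33 (SE 0.162, adjusted p 0.537). With the choroid plexus score as a term, the count of 5 became 3. The 20 heat shock genes, mostly chaperones and their partners in the cytosol, nucleus and mitochondria, had a median of -0.05. Among them 2 members had an unadjusted p under 0.05, Chordc1 (-0.28, SE 0.0875, adjusted p 0.369) and Ahsa1 (-0.23, SE 0.0985, adjusted p 0.495).

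Many promoters of chaperones of the endoplasmic reticulum hold the stress response element, read as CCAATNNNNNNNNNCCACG, which is bound by NF-Y and ATF6 when unfolded protein accumulates. RefSeq promoters of GRCm38.p6, from 250 bases before to 50 after each gene start, were searched for it on both strands. It was present in 39 of 32851 promoters, or 0.119%, and in 8 of the 23 list members with a promoter in the table: Hspa5, Hsp90b1, Pdia6, Calr, Canx, Dnajc3, Creld2 and Syvn1. The windows below carry 5 bases on either side, with the motif's fixed letters in capitals, and are shown because these members include both chaperones with the smallest p and also members with values near 0.
Hspa5: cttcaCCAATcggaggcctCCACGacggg
Creld2: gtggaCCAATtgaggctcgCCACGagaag
Calr: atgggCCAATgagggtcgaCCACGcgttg
Dnajc3: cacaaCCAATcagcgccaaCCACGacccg
Hsp90b1, element farther from the gene start: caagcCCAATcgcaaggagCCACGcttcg
Hsp90b1, element nearer to the gene start: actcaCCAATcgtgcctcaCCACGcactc
In this order the windows lie at chr2:34772020-34772048 (plus strand), chr15:88819515-88819543 (minus), chr8:84847070-84847098 (plus), chr14:118937822-118937850 (plus), chr10:86705633-86705661 (minus) and chr10:86705528-86705556 (plus).

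For Pdia6, 200 bases of promoter at chr12:17266345-17266544 on the plus strand are shown with the same letters in capitals.
Pdia6: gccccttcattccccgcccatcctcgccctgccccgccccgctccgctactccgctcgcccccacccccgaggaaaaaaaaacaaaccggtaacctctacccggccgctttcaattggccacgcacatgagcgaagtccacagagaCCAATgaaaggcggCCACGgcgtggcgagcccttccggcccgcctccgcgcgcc

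Of the 8 members with the element, all tested, 7 had log2 fold changes below 0, with a median of -0.15. The 12 tested members whose promoter lacked these letters had a median of 0.0039, and 6 of them were below 0. The tested members Hyou1, Manf and Atf6 had no promoter in the set searched and are in neither count. Of these, Manf and Hyou1, but not Atf6, had lower values at an unadjusted p under 0.05. The first median includes Hspa5 and Pdia6, which their p had already picked, and the difference of the medians was not tested. Among the 8, the values ran from Hspa5 and Pdia6 over Creld2, Dnajc3 (-0.16, SE 0.113, adjusted p 0.670) and the calcium-binding chaperone Calr (-0.15, SE 0.0731, adjusted p 0.537) to Syvn1 (-0.01, SE 0.115), Canx (-0.01, SE 0.0627) and Hsp90b1 (0.02, SE 0.118, adjusted p 0.979). Hsp90b1, the Hsp90 protein of the endoplasmic reticulum, holds 2 elements and had a value near 0. A match is a description of these bases, not a measurement of binding.

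**Figure D3:**
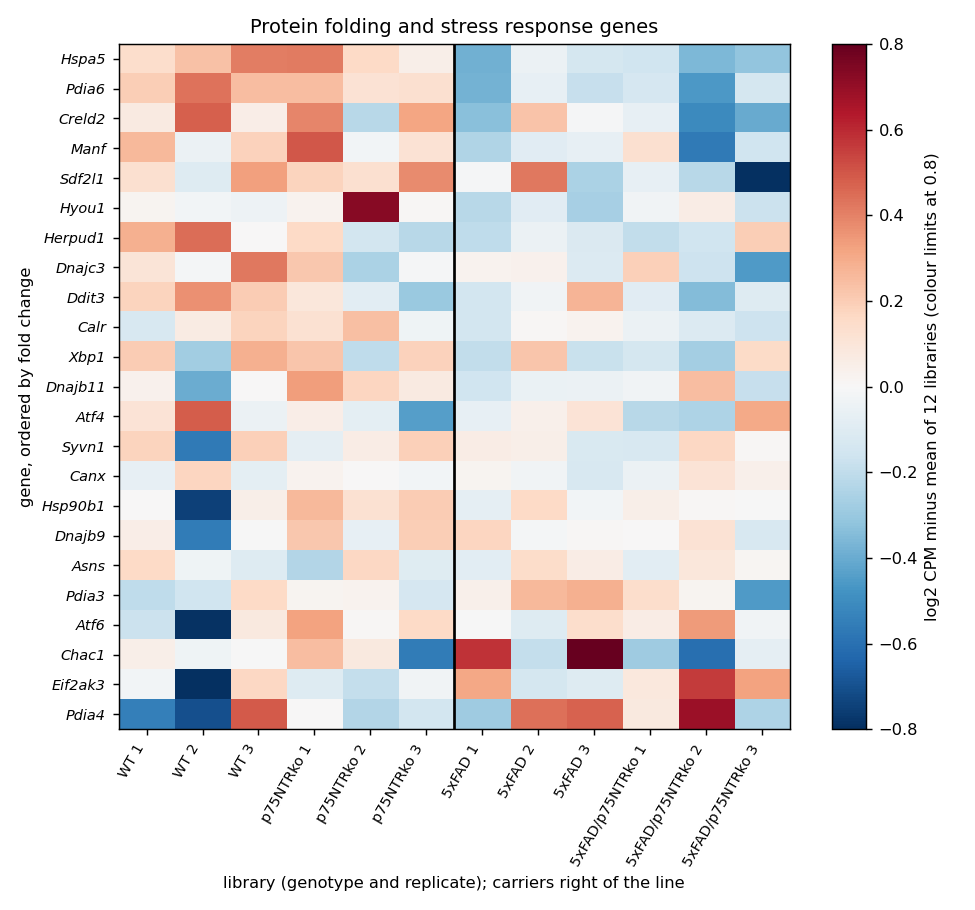
Heat map of the 23 tested genes of the unfolded protein and integrated stress responses (rows) in the 12 libraries (columns), coloured by log2 CPM relative to the gene's mean over all libraries. Hspa5 and Pdia6 are below their means in the 6 carriers and above in the 6 non-carriers, while most other rows show no such split.

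Beyond Ide, the genes around the amyloid precursor showed few differences. The list of precursor processing held 23 genes of the precursor family, of the secretases and of proteins that bind or sort them. All were tested, and 1 had an unadjusted p under 0.05 with a higher value, App, and 1 with a lower value, the alpha-secretase Adam17. Adam17 was 57.0 to 70.7 CPM in carriers and 62.1 to 79.9 CPM in non-carriers (-0.22, SE 0.0811, adjusted p 0.437). The beta-secretase Bace1 had -0.02 (SE 0.0823) and the main neuronal alpha-secretase Adam10 -0.01 (SE 0.102). The list's median was 0.03. In the clearance list, 16 of 17 genes were tested and 4 had an unadjusted p under 0.05, where 9.6% of all genes did. Values were higher for Ide and the lipoprotein receptor gene Vldlr (0.21, SE 0.0933) and lower for the proteases Mme and Ace. Mme was 1.17 to 3.11 CPM against 1.61 to 5.35 CPM (-0.79, SE 0.307, adjusted p 0.464), and Ace had -0.87 (SE 0.340, adjusted p 0.464). The 15 tested genes of tau and inherited risk had a median of 0.02, with Adamts1 lower (-0.37, SE 0.149, adjusted p 0.464) and the adhesion adaptor gene Fermt2 (0.26, SE 0.110, adjusted p 0.486) and Cd2ap (0.24, SE 0.113, adjusted p 0.514) higher in value, none past the threshold.

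Of 27 tested genes of disease-associated microglia, 0 passed and 2 (7.41%, against 9.6% of all genes) had an unadjusted p under 0.05: the tetraspanin gene Cd63 at 321 to 476 CPM in carriers and 412 to 485 CPM in non-carriers (-0.33, SE 0.0846, adjusted p 0.254 by edgeR but 0.0407, a call, by DESeq2), and the chemokine gene Ccl6 at 5.45 to 10.8 CPM against 4.03 to 7.22 CPM (0.65, SE 0.190, adjusted p 0.327). The list's median was 0.00075. Trem2, the receptor that the state depends on, had -0.13 (SE 0.164, adjusted p 0.815). Of 20 homeostatic microglial genes, 3 had an unadjusted p under 0.05 with higher values, as had 5.6% of all genes. Among the 3 were the purine receptor gene P2ry12 (0.26, SE 0.112, adjusted p 0.495) and Ly86 (0.57, SE 0.251). Their list had a median of 0.0014. Reactive astrocyte genes had values above 0 for 13 of 20 tested, against 6695 of all 13065 genes. Their median was 0.07 over all 12 libraries but -0.0068 and -0.10 within the receptor labels. Gfap, the astrocyte filament gene, was at 73.8 to 113 CPM in carriers and 94.2 to 146 CPM in non-carriers (-0.27, SE 0.0944, adjusted p 0.405). It was the 1 gene of that list with an unadjusted p under 0.05, and the next smallest belonged to Emp1 (-0.52, SE 0.271). Among 15 astrocyte identity genes the water channel gene Aqp4 (-0.38, SE 0.118, adjusted p 0.365) and Mlc1 (-0.16, SE 0.0644, adjusted p 0.464) were lower in value, while the list's median was 0.01. Ccl6, P2ry12, Gfap and Adam17 are overlapped at their ends by antisense genes, and Prnp, Trf and Igf2 by genes of the same strand, so their counts are less certain. In bulk tissue, fewer cells of a type and less RNA per cell cannot be told apart.

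Values of synaptic genes were above 0 for 18 of 25 presynaptic, 16 of 22 glutamate receptor and 11 of 13 GABA-A receptor genes. Over all 13065 tested genes 6695 had such a value, and 0 of the synaptic genes passed. Of the 25 presynaptic release genes, 5 had an unadjusted p under 0.05, all higher: the fusion adaptor gene Napb (0.22, SE 0.0701, adjusted p 0.369), the active zone scaffold Pclo (0.18, SE 0.0568, adjusted p 0.378), Sv2a, Rims1 and Dnm1. Of all tested genes 5.6% had a higher value at that p. Pclo was 162 to 186 CPM in carriers and 148 to 159 CPM in non-carriers, without overlap. The list's median was 0.04, and with the choroid plexus score as a term 1 of its genes was higher and 4 lower at that p. The 13 GABA-A receptor subunit genes had a median of 0.17. An unadjusted p under 0.05 was found for 3 of them, all higher in value, among them Gabra4 (0.23, SE 0.0870, adjusted p 0.454) and Gabrb2 (0.15, SE 0.0641, adjusted p 0.495). Their summed level was 2015 to 2133 CPM in carriers and 1749 to 2081 CPM in non-carriers. Of 22 glutamate receptor genes, 3 (13.6%, against 9.6% of all genes) had an unadjusted p under 0.05. Gria2 (0.29, SE 0.105, adjusted p 0.427) and Grin2b (0.20, SE 0.0714, adjusted p 0.436) were higher and the scaffold gene Dlg4 (-0.41, SE 0.163) lower in value at that p. Markers of GABAergic interneurons had a median of -0.08, at -0.20 for 5xFAD against WT but 0.13 for 5xFAD/p75NTRko against p75NTRko, and that difference was not tested. Of these 17 genes 0 reached an unadjusted p under 0.05, the smallest being those of Dlx1 (-0.17, SE 0.103) and Cnr1 (0.30, SE 0.157). Of 25 immediate early genes 0 reached it, with Ier2 (0.62, SE 0.387) and Sik1 (-0.31, SE 0.196) nearest, and their sum was highest in 5xFAD/p75NTRko replicate 3 (3775 CPM against 1743 to 2502 CPM in the other 11).

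Genes of the lysosome and autophagy had values below 0 for 20 of 26, against 48.8% of all genes, with a median of -0.09, and 0 passed. At an unadjusted p under 0.05 stood the autophagosome protein genes Gabarap (-0.20, SE 0.0659, adjusted p 0.386) and Map1lc3b (-0.25, SE 0.106), the cholesterol carrier gene Npc2 (-0.26, SE 0.102, adjusted p 0.464) and the channel gene Mcoln1 (-0.25, SE 0.109). Of all tested genes 4% had a lower value at that p. Of 18 growth factor signalling genes, Igfbp2 (-0.73, SE 0.294, adjusted p 0.473) and Igf2 (-0.72, SE 0.314, adjusted p 0.495) were lower in value. Igf2 was 8.95 to 45.6 CPM in carriers and 34.2 to 52.5 CPM in non-carriers, and both genes are also made in choroid plexus and meninges. With the choroid plexus score as a term their values were 0.04 and 0.02. Carrier and receptor labels together held 41.0% of the variance of that score, and its part in these values was not tested. The 37 respiratory chain genes had a median of -0.0012, with Ndufa10 and Ndufa4 (0.27, SE 0.128, adjusted p 0.514) higher in value at an unadjusted p under 0.05. These were 5.41% of the list, near the 5.6% of all tested genes with a higher value at that p.

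Neurogenesis is the study's own subject. Of 28 neurogenesis genes 24 were tested, 12 with values above and 12 below 0, with a median of 0.05. The adhesion molecule gene Ncam1 was 664 to 848 CPM in carriers and 570.1 to 698 CPM in non-carriers (0.23, SE 0.0694, adjusted p 0.335), and Sema3c had 0.32 (SE 0.147, adjusted p 0.501). Dcx, the marker of immature neurons, had 0.15 (SE 0.151, adjusted p 0.782). The 17 hippocampal field genes had a median of 0.04, at 0.39 for 5xFAD against WT but -0.28 for 5xFAD/p75NTRko against p75NTRko, and that difference was not tested. Among them Pou3f1 (0.47, SE 0.147, adjusted p 0.361) and Lrrtm4 (0.18, SE 0.0785, adjusted p 0.495) had an unadjusted p under 0.05. A higher value at that p was found for 5.6% of all tested genes. The value of Pou3f1 was 0.87 for 5xFAD against WT but 0.07 for 5xFAD/p75NTRko against p75NTRko, and the test of that difference gave an adjusted p of 0.331. Oligodendrocyte genes had values below 0 for 15 of 18, where 48.8% of all genes did. Among them Mag (-0.29, SE 0.103, adjusted p 0.410), Trf (-0.49, SE 0.213, adjusted p 0.495) and Gjb1 (-0.26, SE 0.117) had an unadjusted p under 0.05. Of all tested genes 4% had a lower value at that p. The list's median was -0.16, and its medians within receptor label had opposite signs, at 0.13 for 5xFAD against WT but -0.43 for 5xFAD/p75NTRko against p75NTRko. The difference of these medians was not tested. Of the 15 tested endothelial and mural genes 0 had such a p, with Slco1a4 (-0.19, SE 0.0944) and Cldn5 (0.36, SE 0.200) nearest.

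**Figure D4:**
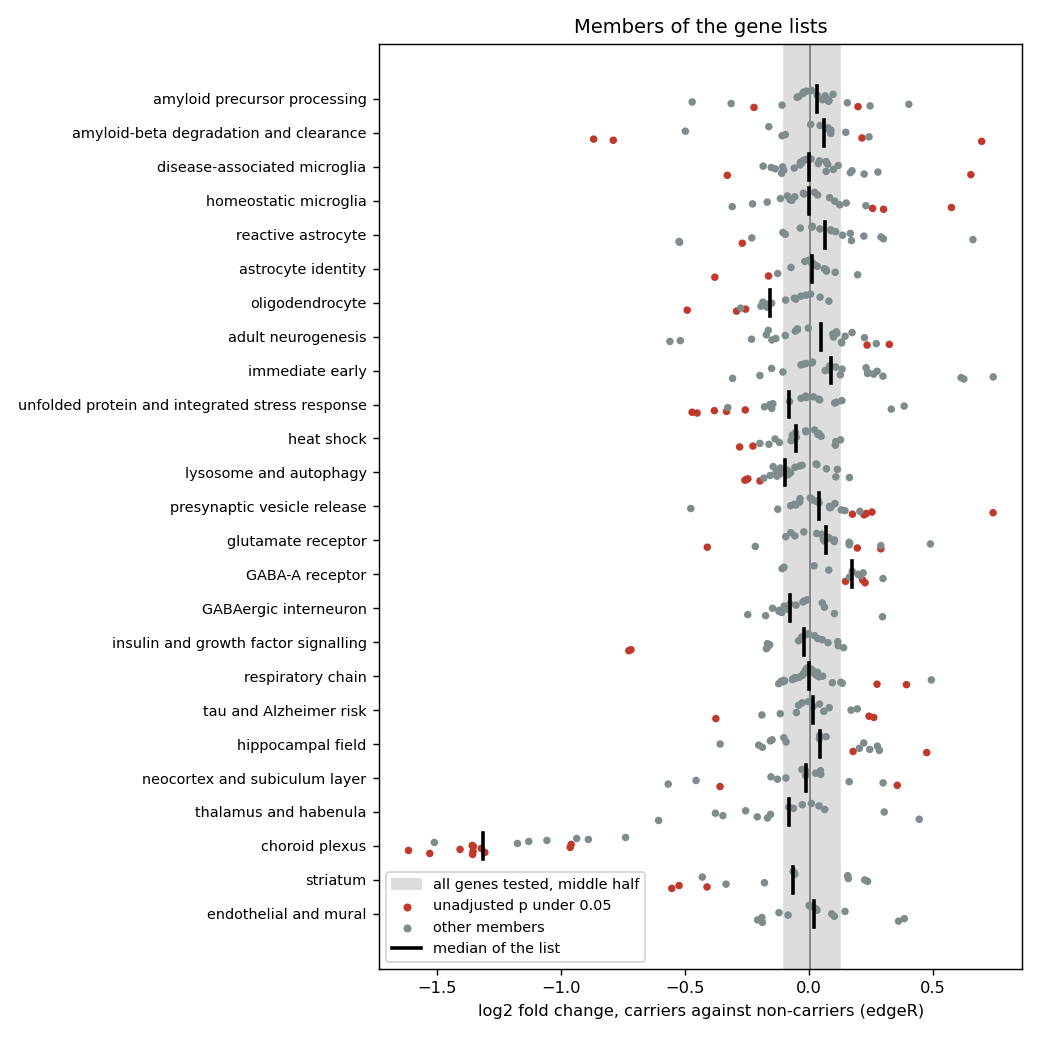
Log2 fold change of carriers against non-carriers (horizontal axis) for every tested member of each list drawn, which leaves out those of X- and Y-linked and of cholesterol synthesis genes (points, red where the unadjusted p is under 0.05), with the list's median as a bar and the interquartile range of all tested genes as a grey band. The 18 choroid plexus genes are all below 0 with a median of -1.31, and the other medians plotted lie between -0.16 and 0.17.

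Markers of the choroid plexus, the epithelium that makes cerebrospinal fluid and adjoins the hippocampus, had lower values in carriers, but 0 of them passed. All 18 were tested and all 18 had values below 0, against 48.8% of all genes, with a median of -1.31. An unadjusted p under 0.05 was found for 11, where 4% of all genes had a lower value at that p. Cldn2, a tight junction gene, was 1.47 to 35.6 CPM in carriers and 12.98 to 43.9 CPM in non-carriers (-1.36, SE 0.530, adjusted p 0.464), and F5 was 0.195 to 20.6 CPM against 7.16 to 24.4 CPM (-1.53, SE 0.598, adjusted p 0.464). The summed markers were 1982, 1381 and 328 CPM in 5xFAD, 7357, 183 and 370.4 CPM in 5xFAD/p75NTRko, 2457, 3253 and 6091 CPM in WT and 7421, 4529 and 5354 CPM in p75NTRko. Thus 5 of the 6 carriers lay below all non-carriers, and 5xFAD/p75NTRko replicate 1 lay beside the highest. Without that library the median was -2.26 and all 18 had an unadjusted p under 0.05. The library was picked after its value was seen and the markers come from the same tissue, so this count is not a separate test. With the choroid plexus score as a term, Impad1 and Thy1 were the 2 genes past the threshold. Hspa5, Pdia6, Nt5c3 and Ide kept their sign there but did not pass. Carrier and receptor labels together held 41.0% of the variance of this score, and its part in these values was not tested.

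Of 15 markers of thalamus and habenula 0 had an unadjusted p under 0.05, with sums of 335 to 1028 CPM in carriers and 373 to 846 CPM in non-carriers. The list's median was -0.08 over all 12 libraries, -0.75 for 5xFAD against WT and 0.62 for 5xFAD/p75NTRko against p75NTRko, and the difference of the last pair was not tested. All 3 sums in 5xFAD (395 to 453 CPM) lay below all 3 in WT (656 to 846 CPM), and 5xFAD/p75NTRko replicate 1 had the highest sum of the 12 libraries. The smallest p-values belonged to Synpo2 (-0.61, SE 0.371) and Lef1 (0.44, SE 0.342). Of 15 markers of neocortex and subiculum, Fn1 (-0.36, SE 0.105, adjusted p 0.332) was lower and Rorb (0.36, SE 0.150, adjusted p 0.486) higher in value. Rorb had 0.004 for 5xFAD against WT but 0.73 for 5xFAD/p75NTRko against p75NTRko (adjusted p of the difference 0.413, edgeR). The list's medians in these 2 comparisons were -0.40 and 0.13, a difference that was not tested. Of 10 blood markers 0 passed the filter, and the haemoglobin genes Hba-a1, Hba-a2, Hbb-bs and Hbb-bt had 0 counts in all 12 libraries, although reads that align to several places, as in near-identical copies, were not counted.

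A measure outside the gene counts also separated the groups. Reads that aligned to no annotated feature made up 32.7%, 32.8% and 33.0% of the reads in the table in 5xFAD, 33.0%, 33.5% and 32.4% in 5xFAD/p75NTRko, 29.7%, 28.9% and 31.1% in WT and 30.9%, 31.0% and 31.3% in p75NTRko. Every carrier lay above every non-carrier, by 2.42 percentage points on average (32.9% ± 0.375 against 30.5% ± 0.979, SD, n = 6 each) (two-sided exact p 0.005, permuted within receptor label). That p is the smallest that the 400 assignments can give. The test was not planned, and it was run on the share that separated the groups. The shares of assigned, ambiguous, unaligned and multiply aligned reads all overlapped between carriers and non-carriers. As a share of uniquely aligned reads the difference was 3.05 points (exact permutation p 0.015), and 5xFAD/p75NTRko replicate 3 at 45.5% then lay among the non-carriers. Carrier and receptor labels together held 81.3% of the variance of this share. With the share as a term, 184 genes passed (86 higher, 98 lower), so a value of carriers at equal share rests on extrapolation between groups that do not overlap. Its part in the differences above was not tested.

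**Figure D5:**
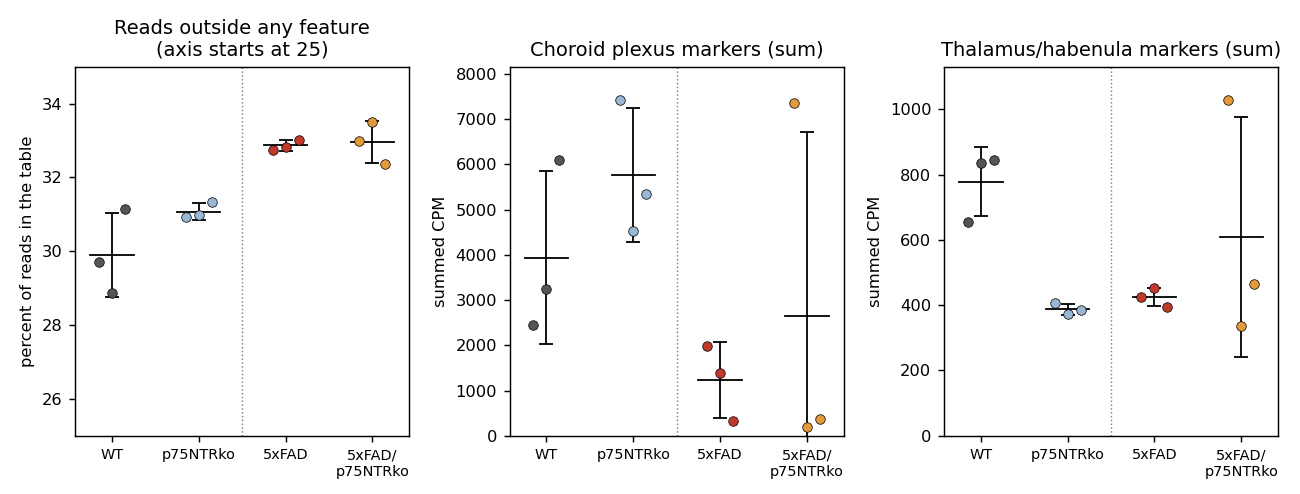
Percentage of reads outside any annotated feature (axis starting at 25), and summed CPM of the choroid plexus and of the thalamus and habenula markers, in each of the 12 libraries by genotype. The read share is higher in all 6 carriers, and the choroid plexus sum is lower in 5 of them.

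The effect differed between receptor labels for 5 genes in the interaction test (0.0383% of 13065, edgeR), of which Ddx3y, Eif2s3y, Kdm5d and Uty are Y-linked and followed Xist class. The fifth was Adra1b, an adrenergic receptor gene, at -1.85 for 5xFAD against WT but 0.87 for 5xFAD/p75NTRko against p75NTRko (difference 2.73, SE 0.420, adjusted p 0.0307). Once genes of both sex chromosomes were removed before adjustment, 0 genes passed (25 genes passed by DESeq2 with them kept). Within receptor label, 5xFAD against WT had 7 genes past the threshold (0.0536%). They were Thy1, Ide (adjusted p 0.000905), Adra1b, Slc38a2 and the Y-linked Ddx3y, Eif2s3y and Uty, in a comparison that Xist class follows completely. The comparison of 5xFAD/p75NTRko with p75NTRko had 0. At an unadjusted p under 0.05 by edgeR they had 1812 and 862 genes, respectively.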

How the data were processed

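Mouse hippocampal RNA was profiled in 12 QuantSeq 3′ forward libraries. The authors deposited a table of raw counts per gene symbol. FastQC, HISAT2, SAMtools, HTSeq and edgeR and the mm10 build are named, without versions, per the submitters' processing notes. Neither the annotation nor the strand setting of the counting is given in the sources used here. The table's 5 summary lines entered neither library sizes nor tests, and hold 28.9% to 33.5% of reads outside features.

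In R 4.3.3, edgeR 4.0.16 (filterByExpr by genotype, TMM factors of 0.975 to 1.03, quasi-likelihood test, carrier plus receptor label, residual degrees of freedom 9) was fitted to all 12 libraries, with Benjamini-Hochberg adjustment and a threshold of 0.05. The common biological coefficient of variation was 14.8%. Log2 CPM used a prior count of 2. DESeq2 1.42.0, limma 3.58.1 (voom), other scalings and filters, additional terms and each library left out were alternatives. The procedure was tested on simulated data. Positions came from RefSeq and an annotation of GRCm38, the assembly of mm10, and 99.7% of tested genes had one.

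The text names a fixed set of genes (Thy1, App, Prnp, Ngfr, Ide, Xist and Ddx3y), every gene past the threshold, the next by p up to 20, and in each of 27 lists every member past the threshold or otherwise the 2 of smallest p. Some genes under this rule are not reported here. Further members with an unadjusted p under 0.05 were named after their values were seen. The groups and lists were chosen with earlier results of these data known. Lists were described by counts and medians, without a set test. The counts are of amplified reads without molecular identifiers, so a count is not a number of molecules.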

Additional observations from a re-analysis of the deposited data

Results flagged for a closer look

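Values of a library that stood apart from the other 5 of its group, by Dixon's test at the 95% level, were found in 14 of 144 groups of 6, where chance gives about 1 in 20. Among the non-carriers, WT replicate 2 stood apart for Thy1 at 938 CPM (others 687 to 775), for App at 707 CPM (others 913 to 1016), for Pdap1 at 74.9 CPM (others 64.9 to 68.3), for Dcaf12l1 at 167 CPM (others 139 to 148), for Sp4 at 86.7 CPM (others 95.2 to 97.6) and for Ahsa1 at 124 CPM (others 86.1 to 97.4). Other WT libraries did so for 5730455P16Rik at 39.6 CPM (replicate 3), Gfap at 146 CPM (replicate 3) and Cd63 at 412 CPM (replicate 1). Among the carriers, 5xFAD/p75NTRko replicate 1 stood apart for Cd63 at 476 CPM (others 321 to 371), Lrrtm4 at 47.7 CPM (others 38.6 to 42.0), F5 at 20.6 CPM (others 0.195 to 7.12) and the mean log2 CPM of the thalamus and habenula markers at 4.97 (others 3.40 to 3.97), and 5xFAD/p75NTRko replicate 3 for Sik1 at 9.33 CPM (others 3.99 to 5.76).

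The carrier effect on Ddx3y differed between the receptor labels by -14.59 on the log2 scale (8.27 and -6.32, adjusted p 0.00472, edgeR), and that on Kdm5d by -14.91 (8.98 and -5.92, adjusted p 0.0186, edgeR). Both genes are Y-linked, and the labels differ in Xist class.

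Among the summary lines of the table, which no gene comparison uses, the lowest carrier share of reads outside any feature, 32.4%, exceeded the highest non-carrier share, 31.3%.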

How the results depend on the processing

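Thy1 passed under every alternative except 5xFAD/p75NTRko against p75NTRko taken alone. Its permutation difference was 1.78 to 2.13 with a library left out (exact p 0.005 to 0.01), 1.89 on library totals, 1.91 by RLE and over all 924 assignments (p 0.00216), and 2319 CPM on the linear scale. The count of 1 gene became 66 by DESeq2, 6 without a filter, 2 with genotype means or the choroid plexus term, 184 with the added term for reads outside features, 7 and 0 within receptor label, and 1 to 52 with a library left out (52 without 5xFAD/p75NTRko replicate 3). The replicate numbers did not pair the libraries (correlations of same-numbered libraries -0.42 to 0.14, 2 of 12 closest to their own number), and with a replicate block the count was 1. The interaction count of 5 became 25 by DESeq2, 3 with the replicate block, 0 without X and Y, and 3 to 20 with a library left out (20 without 5xFAD/p75NTRko replicate 2). The read-share difference was 2.16 to 2.73 points with a library left out.

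Over all alternatives 35 values of named genes changed sign, and the cause was not tested. Xist was 0.070 with Xist class as a term, 0.20 by limma-voom and 1.56 in 5xFAD/p75NTRko against p75NTRko, where Ddx3y was -6.32 and Kdm5d -5.92. With the thalamus term they were -1.80 and -2.24. With a library left out Ddx3y ran from -1.15 to 2.14 (-1.15, -0.95 and -1.14 without WT replicates 1, 2 and 3) and Prnp from -0.033 to 0.0084 (the latter without WT replicate 2). With the choroid plexus term Ngfr was -0.059, Ier2 -0.035, Igfbp2 0.041 and Igf2 0.017. With reads outside features as a term App was -0.26, Prnp 0.042, Ddx3y -8.51, Kdm5d -5.74, Mme 0.14, P2ry12 -0.30, Mlc1 0.0025, Trf 0.35, Sema3c -0.27, Sik1 0.15, Ahsa1 0.33, Gria2 -0.39, Grin2b -0.17, Cnr1 -0.82, Dlx1 0.12, Ndufa4 -0.36, Fermt2 -0.37, Pou3f1 -0.38, Pdyn 0.11 and Cldn5 -0.32. Depth limits the low genes: 3 counts were 0.445 to 0.689 CPM.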

Other observations

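Most genes of cholesterol synthesis had higher values in carriers, none past the threshold. The list of 23 genes was drawn up after values had been seen, so its counts support nothing. Over all 13065 tested genes, 6695 had values above 0 and 5.6% a higher value at an unadjusted p under 0.05. Of the 23, all tested, 20 had values above 0 and 10 an unadjusted p under 0.05, all of these higher, with a median log2 fold change of 0.18 (0.18 in 5xFAD against WT, 0.23 in 5xFAD/p75NTRko against p75NTRko), and 0 passed the adjusted threshold in edgeR. Fdft1, squalene synthase, was 17.0, 21.6 and 14.7 CPM in 5xFAD, 35.1, 22.8 and 22.6 CPM in 5xFAD/p75NTRko, 13.6, 13.9 and 12.1 CPM in WT and 11.5, 15.6 and 15.6 CPM in p75NTRko (0.68, SE 0.154, adjusted p 0.175). Hmgcs1, a synthase early in the pathway, had 0.31 (SE 0.0724, adjusted p 0.191) and Insig1, a sterol sensor, 0.67 (SE 0.183, adjusted p 0.300). The exceptions below 0 were Ebp (-0.17), Pmvk (-0.06) and Cyp51 (-0.04). For Fdft1 and Hmgcs1 the groups overlapped, and both passed in DESeq2. With the choroid plexus score as a term 6 were higher and 1 lower at that p.

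Genes with a higher value in carriers at an unadjusted p under 0.05 spanned a median of 48.6 kb in the annotation, those with a lower value 19.4 kb and all tested genes 24.7 kb. Among genes whose groups did not overlap the medians were 47.3 kb for the higher and 11.0 kb for the lower. These are descriptions of gene spans, introns included, in groups that also differ in their share of reads outside features. Median levels were 41.6 CPM for the higher genes at that p, 24.8 CPM for the lower and 23.2 CPM for all tested genes. Among genes without overlap they were 47.6 CPM for the higher and 44.2 CPM for the lower. The part of level or of read share in the spans was not tested.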
